A study of Mus musculus with 36 samples.

Results

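The Notch receptors (Notch1, Notch2, Notch3), their ligands Jag1, Jag2 and Dll1, the target genes Hes1 and Hey1, and Rbpj were followed by name in epidermal cells of mouse tail skin through 2 consecutive wounds. The 9 genes were chosen as members of the pathway and not by a threshold on their values. Of the 9, 8 are among the 20181 genes listed for the Lrig1 lineage and 9 among the 22587 listed for the Lgr5 lineage, out of 23903 genes listed for either. Hey1 is the gene without a row for the Lrig1 lineage.

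Notch signalling passes between touching cells. A Jagged or Delta-like ligand on one cell binds a Notch receptor on its neighbour, the receptor is cut outside the membrane by ADAM10 and inside it by gamma-secretase, and the freed intracellular domain joins the DNA-binding protein RBPJ and Mastermind-like co-activators at target genes such as Hes1 and Hey1. In the epidermis the pathway is known for promoting the commitment and differentiation of keratinocytes as they leave the basal layer, and in the hair follicle for keeping the identity of follicular lineages.

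The cells came from adult mice of both sexes that carry an EGFP-ires-CreERT2 cassette in the Lrig1 or the Lgr5 gene together with a Rosa26-fl/STOP/fl-tdTomato reporter. In all groups, the unwounded ones included, Cre had been activated by a single topical dose of hydroxytamoxifen, so the tdTomato+ cells sorted are the marked cells and their progeny. They are called Lrig1 GL cells (genetically labelled, from the upper hair follicle) and Lgr5 GL cells (from the lower hair follicle). There are 3 libraries for each population at each of 6 time points, 36 in all: before wounding (0w), at 1, 2, 4 and 8 weeks after a full-thickness wound (1w, 2w, 4w and 8w pw1), and 1 week after a second, overlapping wound made at 8 weeks (1w pw2). The sorted zone held the wound bed together with follicles far from it, so a change may sit in either. The groups differ in time since labelling and in the animals' age as well as in wounding, and these cannot be told apart. Fewer cells of a type and less RNA per cell cannot be told apart either in such small bulk samples.

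Libraries held 765252 to 3365666 counts in Lrig1 GL cells and 1297798 to 6960537 in Lgr5 GL cells, where the non-coding RNA Gm12415 took 12.04% to 52.1% of them. All levels below are CPM, counts scaled by the size of each library, after TMM scaling of the 36 libraries together, and 3 counts correspond to 0.870 to 2.97 CPM in libraries of Lrig1 GL cells and 0.429 to 3.56 CPM in those of Lgr5 GL cells. All 6 basal keratinocyte markers, among them Krt5 and Krt14, were listed in both populations, with a summed level at 0w of 12607 to 14900 CPM for Lrig1 GL cells and 12104 to 16137 CPM for Lgr5 GL cells. The 6 lower-follicle markers (Lgr5, Cd34, Krt15, Lhx2, Sox9, Postn) summed to 19124 to 25829 CPM in Lgr5 GL cells at 0w, against 6238 to 9715 CPM in Lrig1 GL cells. Postn is named by the study as a marker of the infundibulum, in the upper follicle, and without it the other 5 summed to 17359 to 23534 CPM and 4566 to 7817 CPM. The 6 upper-follicle markers (Lrig1, Plet1, Krt79, Cst6, Defb6, Klk10) summed to 6002 to 9233 CPM for Lrig1 GL cells and 328 to 4986 CPM for Lgr5 GL cells. Each of these 2 lists was higher in the population it marks, with or without Postn. Over all time points fibroblast markers summed to at most 77.1 CPM in a Lrig1 GL library and 421 CPM in a Lgr5 GL library, and immune markers to at most 14.8 and 37.1 CPM, with Cd3e, Cd207, Lyz2 and Tyrobp not listed.

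Before the first wound the order of the 9 genes by mean level differed at its top between the populations. None of the genes tested passed edgeR's test of levels between the populations at 0w, given below. Levels are compared between genes per kilobase of exon (CPM per kb, mean ± SD of 3 libraries). In Lrig1 GL cells Notch1 stood at 70.3 ± 5.04 and Hes1, the transcriptional repressor that is the best known Notch target, at 65.1 ± 13.3. Jag1 followed at 34.9 ± 27.4, Jag2 at 23.2 ± 8.68 and Notch2 at 12.1 ± 2.52. Dll1 at 4.09 ± 1.58, Notch3 at 4.01 ± 2.69 and Rbpj at 2.94 ± 2.04 closed the order. Notch1 and Hes1 did not differ beyond their spread, nor did Jag1 and Jag2, nor the last 3 genes. In 0w library 2 Jag1, at 66.0, lay above Notch1, at 64.7.

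In Lgr5 GL cells Jag1 led at 110 ± 87.6 CPM per kb, a spread set by a library at 1229 CPM beside 2 at 331 and 359 CPM. Its lead over Hes1 was not beyond that spread, with 56.8 against 54.6 CPM per kb in library a. Hes1 at 43.3 ± 10.7 and Notch1 at 38.6 ± 7.58 came next and did not differ beyond their spread. Jag2 stood at 20.3 ± 7.22, Notch2 at 16.2 ± 5.87, Notch3 at 5.16 ± 2.61, Rbpj at 1.65 ± 0.667 and Dll1 at 0.829 ± 0.669. Hey1, a second target repressor, stood at 0.103 ± 0.179. Transcripts of the Jagged ligands were thus far more abundant per length than those of the Delta-like ligand Dll1 in both populations. Of the ligands and receptors outside the 9 genes, Notch4 averaged 3.04 CPM over the 18 Lrig1 GL libraries and 4.10 CPM over the 18 Lgr5 GL libraries. Of the other core genes, the ligand Dll4 and the targets Hes5 and Hey2 were not listed in either population, Heyl had totals of 42 counts for Lrig1 GL cells and 336 for Lgr5 GL cells, and Nrarp, a target that limits the pathway, averaged 13.3 and 15.7 CPM.

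**Figure D1:**
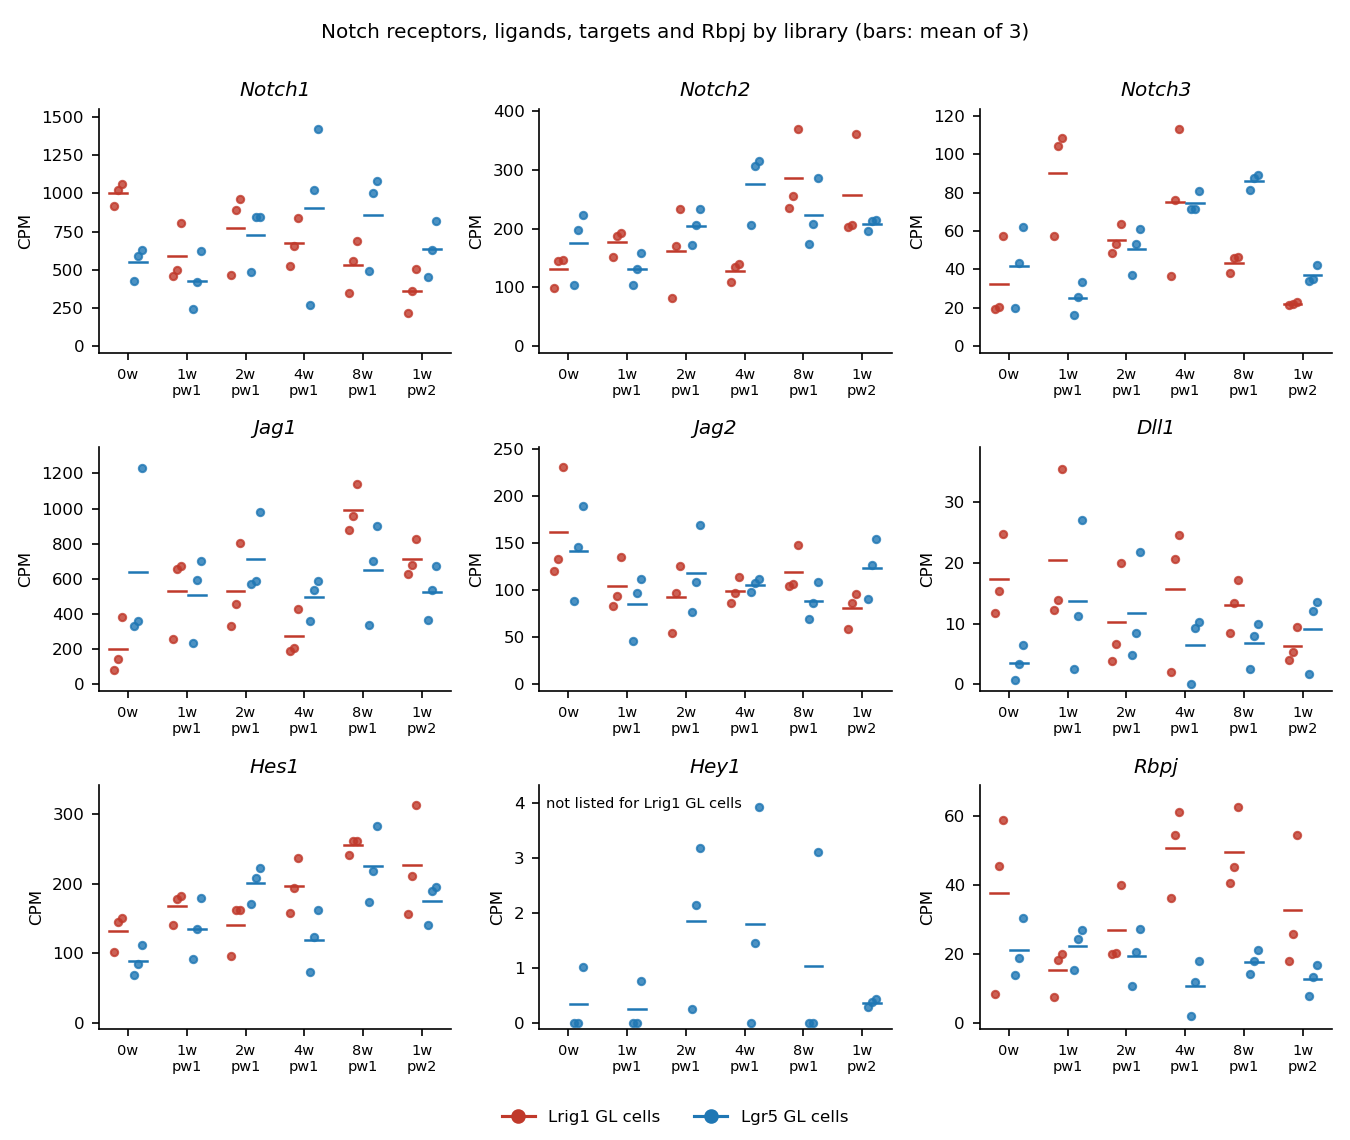
CPM of each of the 9 genes (y axis, linear, scaled to each gene) at the 6 time points (x axis) in Lrig1 GL (red) and Lgr5 GL cells (blue). Points are libraries and bars are means of 3. Jag1 in Lrig1 GL cells is highest at 8w pw1, where its 3 libraries lie between 877 and 1140 CPM, and Notch1 is lowest at 1w pw2, between 219 and 504 CPM.

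The ligand Jag1 (chr2:137081456-137116644, minus strand, GRCm38, protein coding) rose in Lrig1 GL cells. Its 3 libraries stood at 83.7, 385 and 142 CPM at 0w and at 659, 674 and 258 CPM at 1w pw1. They stood at 457, 331 and 802 CPM at 2w pw1, and at 189, 208 and 430 CPM at 4w pw1. At 8w pw1, when the skin had healed, they reached 958, 877 and 1140 CPM, and at 1w pw2 677, 827 and 630 CPM. All libraries of 8w pw1 and 1w pw2 lay above all libraries of 0w, while 1w, 2w and 4w pw1 overlapped with 0w. The log2 fold change against 0w was 2.23 ± 0.52 (SE) at 8w pw1 with an adjusted p of 0.0347, by edgeR's quasi-likelihood test with Benjamini-Hochberg adjustment over the 14306 genes tested. Jag1 was the 1 of the 8 genes tested that was called at 8w pw1, where 2.82% of all genes were called and 1.52% were called higher. To be called, a gene had to pass 0.05 in adjusted p and have a log2 fold change over 1 or under -1. At 1w pw2 the value was 1.76 ± 0.51 with an adjusted p of 0.0911, and at 1w and 2w pw1 it was 1.37 ± 0.51 with adjusted p of 0.328 and 0.376. At 4w pw1 it was 0.41 ± 0.50.

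The Jag1 call at 8w pw1 was sensitive to the processing. It was kept with DESeq2, DESeq2 size factors, limma-voom, the likelihood ratio test, no filter on low counts and Gm12415 left out, and lost with the next 3 alternatives. With 5 surrogate variables estimated from the data the value was 1.16 (adjusted p = 0.243), with 2 it was 0.52 (0.832), and with each library's trend on GC content removed it was 2.12 (0.0766). Leaving out single libraries gave 1.85 to 3.09, with 12 of 18 such fits keeping the call. It was lost without 0w library 1 (1.85, adjusted p = 0.101), 0w library 3 (2.01, 0.0857), 8w pw1 library a (2.25, 0.0970), b (2.30, 0.0783) or c (2.11, 0.0928), or 1w pw2 library 3 (2.21, 0.0523). Without 0w library 2, the one at 385 CPM, the change at 1w pw2 passed as well (2.63, adjusted p = 0.0354).

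The receptor Notch1 (chr2:26457903-26516663, minus strand) went the other way in Lrig1 GL cells. It stood at 1059, 920 and 1021 CPM at 0w and at 504, 219 and 359 CPM at 1w pw2. Between these it measured 462, 806 and 496 CPM at 1w pw1, 893, 965 and 465 CPM at 2w pw1, 523, 842 and 658 CPM at 4w pw1 and 347, 558 and 686 CPM at 8w pw1. The 0w libraries lay above every later library except 1 at 2w pw1. The log2 fold change at 1w pw2 was -1.50 ± 0.36 (adjusted p = 0.0482), the 1 call among 8 genes at that time, against 1.23% of all genes called and 0.238% called lower. At 8w pw1 the value was -0.97 ± 0.35 with an adjusted p of 0.119, and at 1w, 2w and 4w pw1 it lay between -0.77 and -0.38.

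This call sat at the threshold. It held in 2 of the 18 fits without a library, whose values ran from -1.88 to -1.25. The adjusted p rose most without 1w pw2 library 2 (-1.25, adjusted p = 0.251), without 1w pw2 library 3 (-1.52, 0.147) and without 0w library 1 (-1.45, 0.113). It was kept without 2w pw1 library c or 1w pw2 library 1, and without each of the remaining libraries the adjusted p was 0.0509 to 0.0723. It was also lost with no filter on low counts (adjusted p = 0.0569), with estimated surrogate variables (-0.80, 0.301), with 2 of them (-1.12, 0.374) and with the GC trend removed (-1.12, 0.117). DESeq2, DESeq2 size factors, limma-voom, the likelihood ratio test and Gm12415 left out kept the call. Part of the Notch1 exons, 1068 bases, overlaps exons of 0610009E02Rik on the opposite strand. The library kit does not mark strand, so reads there cannot be told apart, and that gene had 0.144% as many counts as Notch1 in Lrig1 GL cells.

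**Figure D2:**
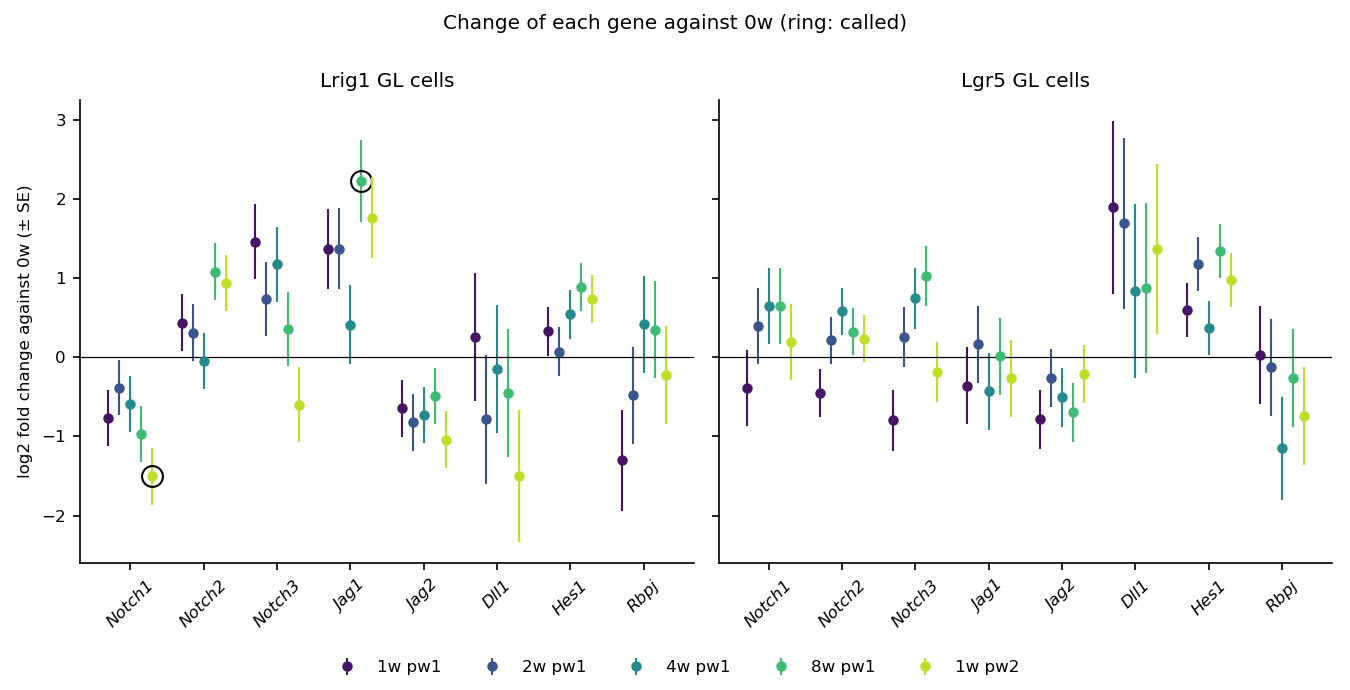
Log2 fold change against 0w (y axis, ± SE) of the 8 genes tested in both populations (x axis) at the 5 later time points (colours), in Lrig1 GL cells on the left and Lgr5 GL cells on the right. Rings mark the 2 called values, Jag1 at 8w pw1 (2.23) and Notch1 at 1w pw2 (-1.50), both in Lrig1 GL cells.

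Changes at 8w pw1 and 1w pw2 in Lrig1 GL cells ran with GC content across all genes. At 8w pw1 the 25% of tested genes with the lowest GC content had a median log2 fold change of 1.03 and the 25% with the highest -0.74, and at 1w pw2 these medians were 0.83 and -0.66. They were 0.15 and -0.15 at 1w pw1, and in Lgr5 GL cells -0.05 and 0.09 at 8w pw1. Jag1 with 48.8% GC lies near the median of the genes tested, 49.3%, and Notch1 with 56.4% lies among the 25% with the highest, above 54.0%. The share of mitochondrial counts was 10.9% to 14.4% in Lrig1 GL cells at 8w pw1 against 3.15% to 5.38% at 0w. The summed upper-follicle markers were 3426 to 4880 CPM at 8w pw1 and 3240 to 3923 CPM at 1w pw2, below the 6002 to 9233 CPM of 0w, and the lower-follicle markers were 3782 to 5630 CPM and 1682 to 3851 CPM, below the 6238 to 9715 CPM of 0w. Without Postn the latter were 1902 to 2936 CPM and 562 to 1571 CPM, also below 0w. The 8 suprabasal markers (among them Krt1, Krt10 and Ivl) overlapped with 0w, at 8177 to 12987 CPM, 10961 to 11666 CPM and 4376 to 18394 CPM in the same order. The 9 dissociation and stress markers (among them Fos, Jun and Egr1) were 1437 to 1864 CPM at 8w pw1, overlapping with the 674 to 1721 CPM of 0w, and 1750 to 2431 CPM at 1w pw2, above 0w without overlap. The part of these shifts in the changes of Jag1 and Notch1 was not tested beyond the fit with the GC trend removed.

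**Figure D3:**
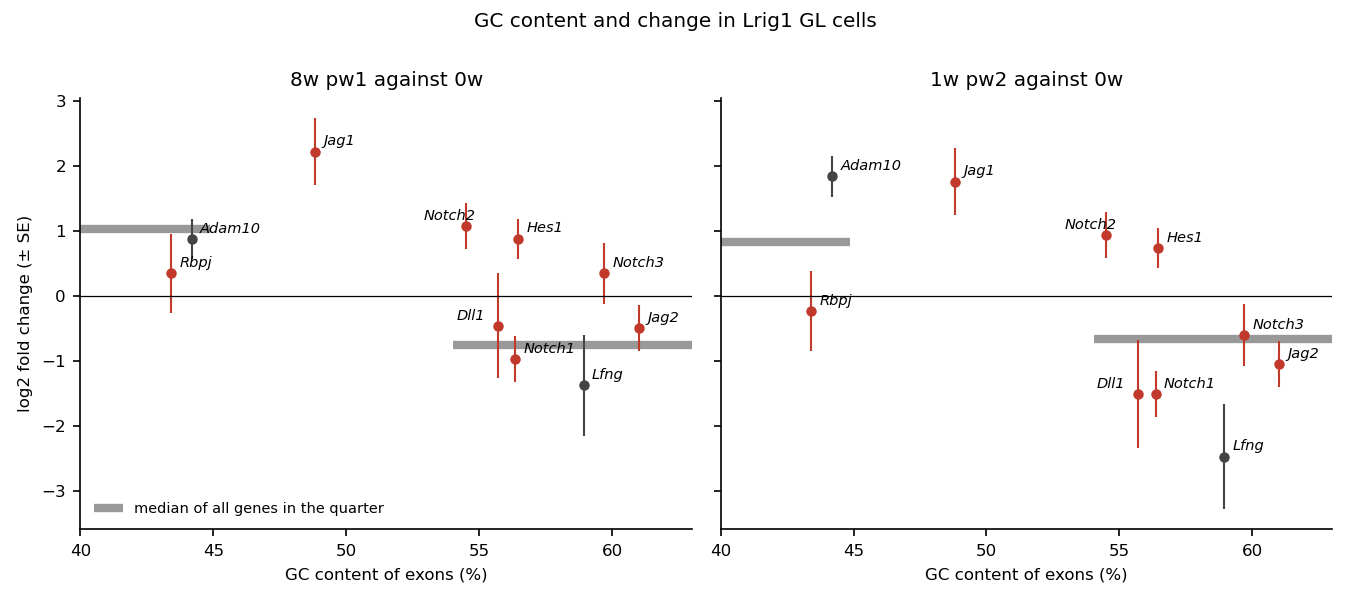
Log2 fold change against 0w in Lrig1 GL cells (y axis, ± SE) against the GC content of each gene's exons (x axis, %), at 8w pw1 on the left and 1w pw2 on the right. Red points are the 8 genes tested, dark points are Adam10 and Lfng, and grey lines are the medians of the 25% of all genes with the lowest and with the highest GC content. Jag1 lies at 2.23 between these ranges of GC content at 8w pw1, and Adam10 (1.84) and Notch1 (-1.50) lie beyond the grey line of their range at 1w pw2.

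Because the ligand and its receptor moved apart, their ratio within each library, which needs no scaling between libraries, was computed after their values were seen and only describes the same libraries again. It sets a gene of 48.8% GC against one of 56.4% and so carries the GC trend given above. Per kilobase, Jag1 was 0.193, 0.339 and 1.02 times Notch1 in the 3 Lrig1 GL libraries of 0w. The ratio was 1.27, 2.04 and 3.48 at 1w pw1, then 0.839, 1.25 and 4.21 at 2w pw1 and 0.603, 0.883 and 1.60 at 4w pw1. It was 3.84, 4.06 and 6.74 at 8w pw1 and 3.28, 4.29 and 9.23 at 1w pw2. The libraries of 1w pw1, 8w pw1 and 1w pw2 lay above those of 0w without overlap. In Lgr5 GL cells the ratio was 1.36, 1.39 and 7.04 at 0w and overlapped with 0w at every later time.

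**Figure D4:**
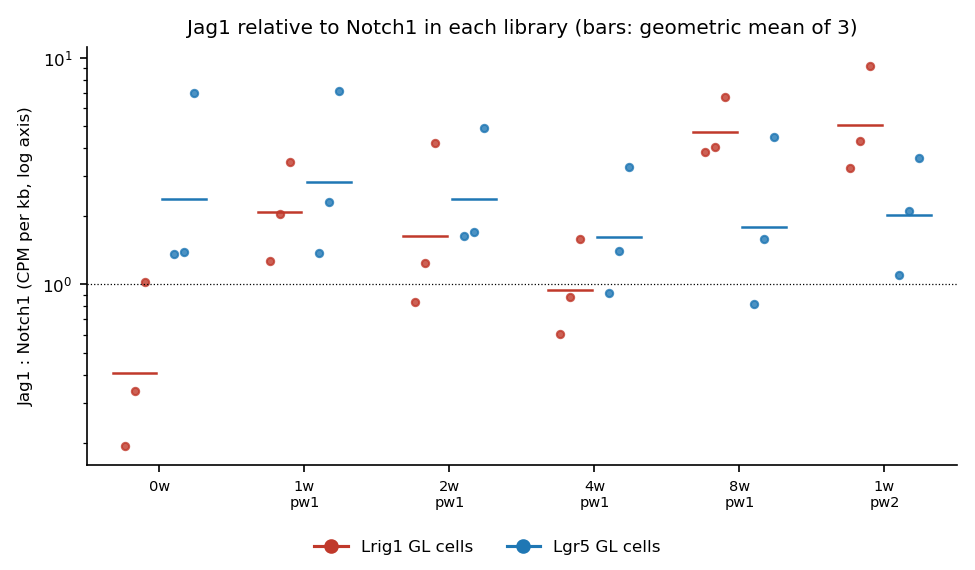
Jag1 divided by Notch1, each in CPM per kb (y axis, log scale), in every library at the 6 time points, for Lrig1 GL (red) and Lgr5 GL cells (blue). Bars are geometric means of 3 libraries and the dotted line marks equal levels. In Lrig1 GL cells the ratio lies at or below 1.02 at 0w and between 3.28 and 9.23 at 8w pw1 and 1w pw2.

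The other receptors in Lrig1 GL cells showed 2 further patterns, neither of them called. Notch2 (chr3:98013527-98150361) stood at 99.6, 147 and 146 CPM at 0w and at 370, 255 and 234 CPM at 8w pw1, without overlap, a log2 fold change of 1.08 ± 0.36 (adjusted p = 0.0887). At 1w pw2 it stood at 207, 361 and 203 CPM, again above every 0w library (0.94 ± 0.36, adjusted p = 0.173). The libraries of 1w pw1, at 193, 152 and 188 CPM, also lay above every 0w library (0.44 ± 0.36, adjusted p = 0.703). The time points between 1w and 8w pw1 overlapped with 0w. The likelihood ratio test and DESeq2 called Notch2 at 8w pw1.

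Notch3 (chr17:32120820-32166852), is a receptor otherwise best known from vascular smooth muscle. Its libraries stood at 19.4, 57.6 and 20.4 CPM at 0w and at 104, 57.4 and 109 CPM at 1w pw1. They measured 63.6, 53.3 and 48.4 CPM at 2w pw1 and 76.0, 113 and 36.6 CPM at 4w pw1. They stood at 46.0, 38.0 and 46.2 CPM at 8w pw1 and at 23.2, 21.9 and 21.3 CPM at 1w pw2. Every time point overlapped with 0w, and the adjusted p against 0w was 0.248 at 1w pw1 and 0.518 at 1w pw2. The libraries of 1w pw1 lay above those of 1w pw2 without overlap, a log2 difference (1w pw2 against 1w pw1) of -2.06 ± 0.49 with an adjusted p of 0.304 in a comparison that called none of 14306 genes (0%), although 1268 had an unadjusted p under 0.05. The likelihood ratio test called Notch3 here, and DESeq2 and limma-voom called no member.

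Jag2 and Dll1, the other ligands, gave no call in Lrig1 GL cells. Jag2 (chr12:112907819-112929776) stood at 121, 231 and 133 CPM at 0w and at 87.0, 59.4 and 95.8 CPM at 1w pw2, without overlap (-1.04 ± 0.36, adjusted p = 0.138). The libraries of 4w pw1, at 86.5, 96.8 and 114 CPM, also lay below every 0w library (-0.73 ± 0.36, adjusted p = 0.602). The value of Jag2 was negative at each of the 5 later time points. Its GC content of 61.0% is the highest of the 9 genes. Dll1 (chr17:15367354-15376872) ranged from 2.09 to 35.4 CPM over the 18 libraries, at 3 to 89 counts, and all time points overlapped with 0w except 1w pw2, at 5.39, 3.98 and 9.46 CPM against 24.7, 11.8 and 15.3 CPM (-1.50 ± 0.83, adjusted p = 0.343). Exons of A930024N18Rik overlap 867 bases of the Dll1 exons on the opposite strand, and that gene had 24.0% as many counts as Dll1, so the 2 cannot be fully separated.

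Hes1 (chr16:30064384-30067796) was the target gene with enough reads to follow. In Lrig1 GL cells it stood at 151, 145 and 101 CPM at 0w and at 242, 262 and 262 CPM at 8w pw1, without overlap (0.89 ± 0.31, adjusted p = 0.104). At 1w pw2 it stood at 157, 313 and 212 CPM, all above 0w (0.74 ± 0.31, adjusted p = 0.212). The libraries of 4w pw1, at 194, 238 and 159 CPM, also lay above 0w (0.54 ± 0.31, adjusted p = 0.668). Earlier time points after the wound overlapped with 0w. Rbpj (chr5:53466152-53657362), the factor through which all 4 receptors act on DNA, ranged from 7.38 to 62.6 CPM, and every time point overlapped with 0w. Counts of the processed pseudogene Rbpj-ps3, a near copy, came to 7.75% of those of Rbpj, so reads may be split between them.

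Over the whole time course none of the 8 genes was called in Lrig1 GL cells by edgeR's joint test of the 5 later time points, against 1.62% of all genes (232 of 14306). 4 of the 8 had an unadjusted p under 0.05, as had 20.5% of all genes, with adjusted p of 0.0845 for Jag1, 0.0883 for Notch3, 0.129 for Notch1 and 0.166 for Notch2. DESeq2 called these 4, the likelihood ratio test called Jag1, Notch1 and Notch3, and limma-voom called none. Without 0w library 2, edgeR's test also called Jag1 (adjusted p = 0.0279) and Notch3 (0.0349). Of the 40 single values of 8 genes at 5 times, 2 were called and 15 had an unadjusted p under 0.05, a mark that 8.37% to 22.9% of all genes reached at these times. The background at 1w, 2w and 4w pw1, where no member was called, was 0.217%, 0% and 0.0419% of genes. The median log2 fold change of the 8 genes was 0.35 at 8w pw1 and -0.41 at 1w pw2, against -0.01 and -0.06 over all genes. Notch1, Notch2, Notch3, Jag2, Dll1 and Hes1 lie among the 25% of tested genes with the highest GC content. The medians of that 25% were -0.74 and -0.66, lower than those of the 8 genes at both times. None of the 8 genes was called between 1w pw2 and 8w pw1 (0.00699% of genes called). There none had an unadjusted p under 0.05, a mark that 5.72% of all genes reached. All 8 values were negative (1w pw2 minus 8w pw1), with a median of -0.55 against -0.01 over all genes.

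In Lgr5 GL cells none of the 9 genes was called in the time course (1.13% of 18025 genes), at any single time point or between the wounds. 2 had an unadjusted p under 0.05 in the time course, Notch3 (adjusted p = 0.0905) and Hes1 (0.147), and 5 of the 45 single values did, against 16.9% of all genes in the time course and 5.94% to 18.6% at single times. The likelihood ratio test called both in the time course, DESeq2 Hes1 and limma-voom Notch3. Without 0w library c Notch3 was also called there by edgeR's test (adjusted p = 0.0450). The background against 0w was 1.29% at 1w pw1, 0.155% at 4w pw1 and 0% at the other 3 times. Between 1w pw2 and 1w pw1 it was 0.266%. There 1 of the 9 genes, Notch2, had an unadjusted p under 0.05, as had 16.8% of all genes. Between 1w pw2 and 8w pw1 the background was 0%, and 1 member, Notch3, had an unadjusted p under 0.05, as had 3.83% of all genes.

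Hes1 was the member with the most regular shift in Lgr5 GL cells. It stood at 111, 85.0 and 68.2 CPM at 0w, at 170, 209 and 223 CPM at 2w pw1 and at 174, 283 and 218 CPM at 8w pw1. At 1w pw2 it stood at 141, 196 and 189 CPM. All 3 of these times lay above 0w without overlap, while 1w and 4w pw1 overlapped with it. The log2 fold change was 1.18 ± 0.34 at 2w pw1 (adjusted p = 0.314), 1.34 ± 0.34 at 8w pw1 (0.509) and 0.98 ± 0.34 at 1w pw2 (0.679), and DESeq2 called it at 2w and 8w pw1. The dissociation and stress markers summed to 902 to 1326 CPM at 0w in these cells. They overlapped with 0w at 1w pw1 (1174 to 1425 CPM) and at 2w pw1 (967 to 2400 CPM), and lay above it at 4w pw1 (1587 to 2366 CPM), 8w pw1 (2729 to 3439 CPM) and 1w pw2 (2366 to 4169 CPM). Both Hes1 and these markers lay above 0w at 8w pw1 and 1w pw2, and both overlapped with it at 1w pw1. At 2w pw1 Hes1 alone lay above 0w, and at 4w pw1 the markers alone did. The part of the markers in the Hes1 values was not tested.

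Notch3 in Lgr5 GL cells stood at 43.25, 62.1 and 19.99 CPM at 0w and at 25.5, 33.4 and 16.4 CPM at 1w pw1. At 2w pw1 it stood at 60.8, 53.4 and 37.1 CPM, overlapping with 0w. At 4w pw1 it stood at 71.2, 71.4 and 80.9 CPM, above every 0w library (0.74 ± 0.38, adjusted p = 0.511). It reached 81.2, 89.2 and 87.6 CPM at 8w pw1, also above every 0w library (1.02 ± 0.38, adjusted p = 0.754), and was at 42.5, 35.1 and 33.7 CPM at 1w pw2. At 1w pw2 it differed from 8w pw1 by -1.21 ± 0.38 with an adjusted p of 1, in a comparison where no gene was called. Notch1 was at 593, 628 and 426 CPM at 0w and Jag1 at 331, 359 and 1229 CPM, and for both genes every later time point overlapped with 0w. Hey1 had 68 counts in all over the 18 libraries and at most 20 in any, with 7 libraries at 0, which allows up to 3.56 CPM in the shallowest, so no change of it was detectable at this depth.

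Whether a gene moved differently in the 2 populations was tested directly, in a fit of all 36 libraries on the 13980 genes tested in both. By edgeR's test none of the 8 genes was called in any of the 6 differences of change, against 0.0572%, 0%, 0.107%, 1.5% and 0.207% of all genes called at 1w, 2w, 4w and 8w pw1 and 1w pw2. By difference, 2, 1, 1, 2 and 2 of the 8 had an unadjusted p under 0.05 at 1w, 2w, 4w and 8w pw1 and 1w pw2, and 3 of 8 for the second against the first wound. Of all genes 15.2%, 8.81%, 10.1%, 18.6%, 13.3% and 13.0% did, in the same order. The nearest were those of Notch3 and Jag1. The step from the first to the second wound (1w pw2 against 1w pw1) differed for Notch3 by -2.60 ± 0.60 on the log2 scale, Lrig1 GL minus Lgr5 GL (adjusted p = 0.0617, 0.107% of genes called). Fitted apart, the step was -2.06 for Lrig1 GL cells and 0.61 for Lgr5 GL cells. This difference was called by the likelihood ratio test, DESeq2 and limma-voom, and by edgeR's test without Lgr5 GL 0w library c (adjusted p = 0.0433), Lgr5 GL 1w pw1 library 2 (0.0456), Lrig1 GL 0w library 1 (0.0472) or Lrig1 GL 0w library 2 (0.0359). The change of Notch3 at 1w pw1 differed by 2.22 ± 0.60 (adjusted p = 0.0920), and it was called by the likelihood ratio test and DESeq2, and by edgeR's test without Lgr5 GL 0w library c (2.55, 0.0388) or Lrig1 GL 0w library 2 (2.93, 0.0170).

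For Jag1 the change at 8w pw1 differed by 2.26 ± 0.74 (adjusted p = 0.0979, 1.5% of genes called), with values of 2.23 for Lrig1 GL cells and 0.01 for Lgr5 GL cells when fitted apart. It was called by DESeq2 (2.35, adjusted p = 0.0307), by the likelihood ratio test (2.26, 0.0486) and by edgeR's quasi-likelihood test without Lrig1 GL 0w library 2 (3.13, 0.0254), and came to -0.04 with 9 surrogate variables (0.993). For Notch1 the change at 1w pw2 differed by -1.68 ± 0.62 (adjusted p = 0.238). None of the alternatives tried called this difference for Notch1.

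Levels were compared between the populations in the same fit. At 0w none of the 8 genes was called by edgeR's test (3.05% of all genes). 2 of the 8 had an unadjusted p under 0.05, as had 17% of all genes. They were Jag1, at a log2 difference (Lrig1 GL minus Lgr5 GL) of -1.65 ± 0.53 (adjusted p = 0.0884), and Dll1, at 2.27 ± 1.01 (0.240). Without Lrig1 GL 0w library 2 the Jag1 difference was -2.50 and was called (adjusted p = 0.0159), as it was by DESeq2 (-1.65, 0.0274) and the likelihood ratio test (-1.65, 0.0391). With estimated surrogate variables Notch1 and Notch2 were called at 0w. Averaged over the 6 time points edgeR's test called none either (16.3% of all genes), and Rbpj had an adjusted p of 0.00347 at a difference of 0.99 ± 0.26, just under the fold threshold, which it passed in 16 of the 36 fits that leave out a library. Rbpj was also called by DESeq2 (1.01), with DESeq2 size factors (1.01), with limma-voom (1.08) and with no filter (1.051), Dll1 with the GC trend removed and Notch2 with estimated surrogate variables. Rbpj, with 43.4% GC, lies among the 25% of tested genes with the lowest GC content. The median mean-level difference of those genes was 0.51, against -0.41 for the 25% with the highest. With the GC trend removed Rbpj was not called. Any difference in how the 2 sets of libraries were made cannot be told apart from the population.

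Of the other pathway genes, 52 were listed by role, of which 38 were tested in Lrig1 GL cells and, for Lgr5 GL cells, 41. In the time course 1 of 38 was called in Lrig1 GL cells, where 10 had an unadjusted p under 0.05 (20.5% of all genes), and none of 41 in Lgr5 GL cells, where 9 did (16.9%). At single times against 0w 1 value was called in each population, against the same background shares as above. In Lrig1 GL cells the gene was Adam10, the protease that makes the first, outer cut in a ligand-bound receptor. In Lgr5 GL cells it was Lfng, the Fringe glycosyltransferase that adds N-acetylglucosamine to Notch and shifts which ligands it answers. The median log2 fold change of the 38 genes was -0.12 at 8w pw1 and -0.23 at 1w pw2, against -0.01 and -0.06 over all genes.

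Adam10 (chr9:70678997-70780229, plus strand) stood at 183, 178 and 211 CPM at 0w in Lrig1 GL cells. At 1w pw1 it stood at 328, 332 and 213 CPM, and at 8w pw1 at 386, 310 and 393 CPM. At 1w pw2 it reached 556, 829 and 716 CPM, above every other Lrig1 GL library. Its log2 fold change at 1w pw2 was 1.84 ± 0.31 (adjusted p = 0.0164) and its time course was called (adjusted p = 0.0180). Its GC content of 44.2% puts it among the 25% with the lowest, whose median was 0.83 at that time. With the GC trend removed the value was 1.02 (adjusted p = 0.0781), with estimated surrogate variables 1.197 (0.129) and with 2 of them 1.21 (0.224). The call was also lost without 0w library 1 (1.82, adjusted p = 0.0594) and without 1w pw2 library 2 (1.70, 0.0819). In Lgr5 GL cells Adam10 stood at 149, 167 and 152 CPM at 0w and at 165, 176 and 166 CPM at 1w pw2, and the difference of change between the populations was 1.77 ± 0.46 (adjusted p = 0.0804).

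Lfng (chr5:140607320-140615545, plus strand) stood at 45.02, 35.97 and 38.01 CPM at 0w in Lgr5 GL cells and at 9.13, 5.23 and 13.5 CPM at 1w pw1, without overlap. At the same 2 times the lower-follicle markers summed to 19124 to 25829 and 5934 to 15597 CPM, the melanocyte markers to 70.3 to 89.8 and 9.89 to 17.01 CPM, and the basal keratinocyte markers to 12104 to 16137 and 22218 to 27107 CPM, none of them overlapping. Their part in the Lfng values was not tested. Its log2 fold change was -2.08 ± 0.48 (adjusted p = 0.0411), and at 1w pw2 the libraries were at 28.9, 28.1 and 28.1 CPM. The call held without 0w library c, 1w pw1 library 3 or 4w pw1 library a, and without each of the other libraries the adjusted p was 0.0505 to 0.133, the highest without 1w pw1 library 1. It was also lost with limma-voom (-2.22, 0.0694), with the GC trend removed (-1.86, 0.0567), with estimated surrogate variables (-1.94, 0.142) and with 2 of them (-1.76, 0.221). Lfng in Lrig1 GL cells stood at 37.9, 16.3 and 56.2 CPM at 0w and at 7.05, 3.32 and 10.1 CPM at 1w pw2 (-2.47 ± 0.82, adjusted p = 0.126).

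**Figure D5:**
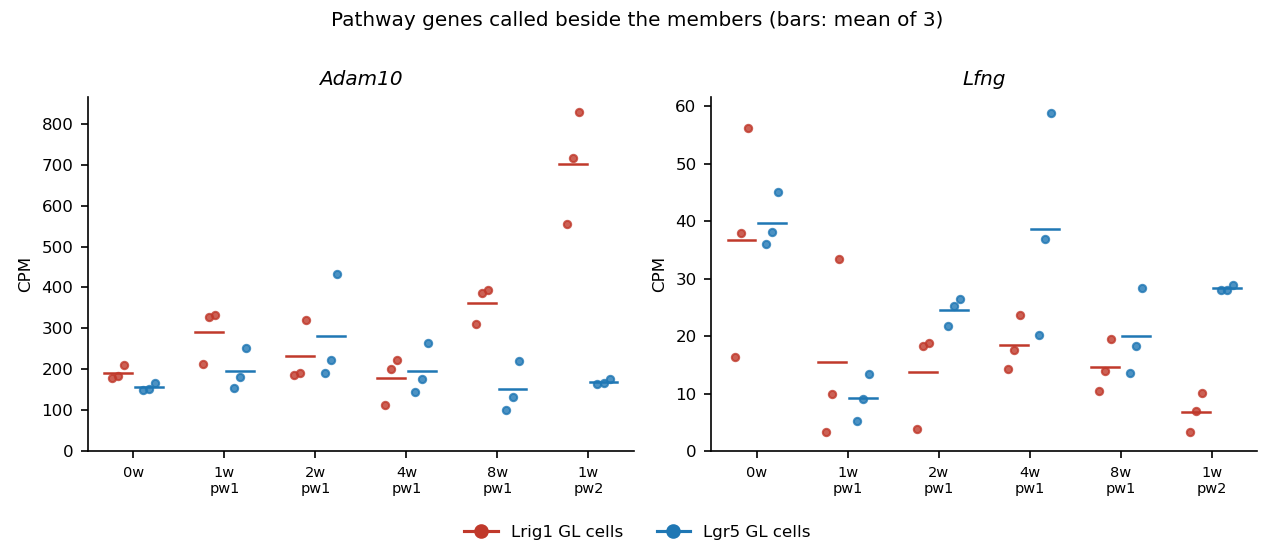
CPM (y axis, linear from 0) of Adam10 and Lfng at the 6 time points in Lrig1 GL (red) and Lgr5 GL cells (blue). Points are libraries and bars are means of 3. Adam10 in Lrig1 GL cells lies between 556 and 829 CPM at 1w pw2, and Lfng in Lgr5 GL cells lies between 5.23 and 13.5 CPM at 1w pw1.

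Between the populations, 2 of 38 of these genes were called at 0w (3.05% of all genes) and 6 of 38 in the mean over the time points (16.3%). At 0w the gamma-secretase subunit Ncstn was lower in Lrig1 GL cells (79.4 to 151 against 219 to 336 CPM, log2 difference -1.35 ± 0.28, adjusted p = 0.00643), a call lost with estimated surrogate variables (-1.30, 0.137). The ligand ubiquitin ligase Neurl1b was higher (45.8 to 53.1 against 0.392 to 15.7 CPM, 2.42 ± 0.64, adjusted p = 0.0335), a call lost without Lgr5 GL 0w library b (2.56, adjusted p = 0.0864) or c (1.88, 0.0748) or any Lrig1 GL 0w library (2.36 to 2.47, 0.0538 to 0.0647). It was also lost with limma-voom (2.41, 0.0757), with estimated surrogate variables (1.76, 0.242) and after random thinning of the Lgr5 GL counts to the average Lrig1 GL depth (2.28, 0.0557). In the mean over the time points Neurl1b (1.77 ± 0.26), Dtx4 (1.92 ± 0.66) and the ubiquitin ligase Itch (1.15 ± 0.23) were higher in Lrig1 GL cells, and the gamma-secretase subunit Psen2 (-1.75 ± 0.43), the ligand ligase Mib2 (-1.34 ± 0.41) and Dtx3 (-1.70 ± 0.31) were lower. The Dtx4 call was lost without Lrig1 GL 1w pw1 library 3 (1.51, adjusted p = 0.0769). It was also lost with limma-voom (1.27, 0.120), 2 surrogate variables (1.75, 0.0645) and thinned Lgr5 GL counts (1.61, 0.0737). With the GC trend removed Mib2 (-0.81, adjusted p = 0.146) and Itch (0.69, under the fold threshold) lost their calls. With 9 surrogate variables all 6 did, Psen2 and Itch with a change of sign (0.54 and -1.07, adjusted p = 0.935 and 0.451) and the other 4 at adjusted p of 0.393 to 0.843.

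By a rule applied to each population, the 3 genes whose log2 CPM ran most like the member with the smallest time-course p were found over the 18 libraries. For Jag1 in Lrig1 GL cells they were Ranbp9 (Pearson r = 0.944), Map4k5 (0.912) and Phf20l1 (0.911), out of 6708 genes with a mean of at least 50 counts. Their GC contents are 45.01%, 44.5% and 40.9%, below that of Jag1. For Notch3 in Lgr5 GL cells they were Abca2 (0.823), Myo18a (0.823) and Prickle3 (0.821), out of 8624 genes. These libraries share scaling, depth and time points, so the values describe likeness only.

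The DNA just upstream of the 4 genes with a call is shown because it is where motifs of RBPJ and of the HES and HEY proteins would be sought first. The RBPJ core TGGGAA and the palindrome CACGTG, which HES and HEY proteins among other basic helix-loop-helix factors can bind, were searched on both strands in the 250 bases before the RefSeq start (GRCm38.p6). For Notch1 that start lies inside the GENCODE gene, which has a second protein-coding transcript reaching to base 26516663, so its window lies in an intron of that transcript. Windows of 21.6% and 6.02% of 32851 RefSeq starts hold them. Matches are in capitals below, bases that GENCODE places in an exon of the gene are left off, and the sequences run 5′ to 3′ along the gene.
Jag1, chr2:137116645-137116770, minus strand: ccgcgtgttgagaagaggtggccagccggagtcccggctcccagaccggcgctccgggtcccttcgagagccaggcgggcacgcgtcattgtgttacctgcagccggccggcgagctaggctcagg
Notch1, chr2:26503825-26504072, minus strand: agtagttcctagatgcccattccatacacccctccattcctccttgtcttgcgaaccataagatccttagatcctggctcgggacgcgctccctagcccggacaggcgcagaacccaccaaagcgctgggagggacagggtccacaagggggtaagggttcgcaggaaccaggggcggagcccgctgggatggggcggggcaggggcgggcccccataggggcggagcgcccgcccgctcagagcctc
Adam10, chr9:70678732-70678981, plus strand: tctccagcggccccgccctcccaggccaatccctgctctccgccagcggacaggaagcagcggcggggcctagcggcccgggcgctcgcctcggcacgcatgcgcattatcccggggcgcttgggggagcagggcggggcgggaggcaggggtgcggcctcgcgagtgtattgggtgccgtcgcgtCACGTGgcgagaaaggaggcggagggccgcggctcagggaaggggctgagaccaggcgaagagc
Lfng, chr5:140607091-140607319, plus strand: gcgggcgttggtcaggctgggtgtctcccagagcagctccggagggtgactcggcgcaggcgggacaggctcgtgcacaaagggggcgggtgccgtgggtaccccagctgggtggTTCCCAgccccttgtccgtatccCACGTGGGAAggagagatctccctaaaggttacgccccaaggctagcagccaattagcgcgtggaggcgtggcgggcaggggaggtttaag
Neither motif occurs in the windows of Jag1 and Notch1, the bases left off included. Adam10 holds CACGTG once, with its first base 64 bases before the start. Lfng holds TTCCCA, the reverse complement of TGGGAA, at 135 bases before the start, and CACGTG at 112 bases and TGGGAA at 108 bases before it, which overlap in CACGTGGGAA. Among the other members with a window, TGGGAA occurs upstream of Rbpj alone, and CACGTG in none. A match describes these letters and not a site in use, and no match says only that they are not in this window.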

How the data were processed

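Sorted tdTomato+ cells were sequenced by an oligo(dT) full-length protocol based on Smart-seq2. The authors trimmed reads with Trim Galore (0.5.0), aligned them to GRCm38 (mm10) with HISAT2 and counted them on GENCODE release 20 of the mouse (M20) with featureCounts. They deposited 2 tables of raw counts per gene. Positions, exon lengths and GC content were taken here from release 21 (M21) by symbol. For 15 libraries the replicate numbers in the tables are those in the labels, and for 21 only the group is known, so these were called a, b and c. The study gives 3 mice for these data, but the labels do not tie libraries to animals, so p-values measure only the spread between these libraries.

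Genes passing filterByExpr (minimum 10 counts) were fitted by edgeR (4.0.16, R 4.3.3) with TMM scaling and the quasi-likelihood test, for each population over its 18 libraries and for both over 36, with Benjamini-Hochberg adjustment over all genes tested. A call needed an adjusted p below 0.05 and, in the time course (at any time point), against 0w and between levels, also a difference of more than 1 on the log2 scale. Alternatives were DESeq2 size factors, DESeq2 (1.42.0), limma-voom (3.58.1), edgeR's likelihood ratio test, no filter, no Gm12415, surrogate variables (sva 3.50.0), removal of each library's loess trend on GC content, Lgr5 GL counts thinned to the mean Lrig1 GL depth, leaving out each library and a replicate block. The lower-follicle sum without Postn and the Jag1 to Notch1 ratio were added after seeing the data. The fits were tested on simulated counts first. The 9 genes, the pathway and marker lists and the tests were chosen with earlier results of these data known. Of the other pathway genes, those called in a time course or between populations and the core of the pathway were named. Same-numbered libraries of different time points did not deviate together, with correlations across genes from -0.0576 to 0.125 in Lrig1 GL and -0.0716 to 0.0174 in Lgr5 GL cells, so the numbers were not read as pairs. Floors cover counting error only. Upstream sequences are RefSeq's (GRCm38.p6), found for all but Hes1 and Hey1 of the 9 genes.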

Additional observations from a re-analysis of the deposited data

How the results depend on the processing

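Counts of called members depended on the tool and on the adjustments made. In Lrig1 GL cells the time course called 3 of 8 with the likelihood ratio test and 4 with DESeq2, against 0, and single time points 4 with each of these, 1 with no filter and 0 with estimated surrogate variables, 2 surrogate variables or the GC trend removed, against 2. The second against the first wound called 1 with the likelihood ratio test, against 0. In Lgr5 GL cells the time course called 2, 1 and 1 with the likelihood ratio test, DESeq2 and limma-voom, against 0, and single time points 2 with DESeq2, against 0. The difference between populations called 3, 3 and 1 with the likelihood ratio test, DESeq2 and limma-voom, against 0. Levels between populations called 2 with DESeq2, 3 with estimated surrogate variables and 1 with DESeq2 size factors, no filter, the likelihood ratio test, limma-voom or the GC trend removed, against 0. The cause was not tested.

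Without single libraries the counts ran from 0 to 2 in the Lrig1 GL time course and at its single time points, from 0 to 1 in the Lgr5 GL time course, from 0 to 3 for the difference between populations and from 0 to 1 for levels, and stayed at 0 for the other 5 comparisons. The 3 were Notch3 in 2 contrasts and Jag1, without Lrig1 GL 0w library 2.

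With a replicate block on the libraries of 0w, 1w pw1 and 1w pw2 in Lrig1 GL cells, 0 members were called against 1, and 0 with the same libraries and no block, a fit chosen after seeing the data. Notch1 at 1w pw2 was then -1.53 (adjusted p = 0.140), against -1.51 (0.0779) without the block. Adam10 at 1w pw2 was 1.83 (adjusted p = 0.0888) with the block and 1.84 (0.0284) without it. It changed no other call of a member or named gene, while over all genes it took the calls at 1w pw2 from 65 to 1 and at 1w pw1 from 19 to 3.

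6 single values changed sign, all with the 9 surrogate variables estimated in the fit of both populations and all with an adjusted p above 0.4. They were -0.044 for Jag1 in the difference at 8w pw1, 0.65 for Notch1 in the difference of 1w pw2 against 1w pw1, -0.30 for Dll1 at 0w, and 0.54, -1.07 and -0.39 for Psen2, Itch and Hes1 in the mean level. The cause was not tested. With 3 libraries a group, Hey1, Dll1 and Rbpj are the members that depth limits most.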
